A study of Mus musculus with 16 samples.

Results

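Expression of 10 genes of cytotoxic and memory-like CD8 T cells was examined in thymocytes with and without *Tox4*, to ask whether effector-like cells or transcripts were present in either genotype. The genes, *Eomes*, *Tbx21*, *Gzma*, *Gzmb*, *Gzmk*, *Prf1*, *Nkg7*, *Klrd1*, *Ccl5* and *Ifng*, were chosen by name as effector and innate memory-like genes. All 10 were found among the 24974 genes listed in both deposited tables of fragment counts.

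The study removed the HMG-box protein Tox4 from developing T cells and measured polyA RNA by strand-specific RNA-seq. Sorted double positive (DP) thymocytes, which carry CD4 and CD8, came from 3 control samples (Tox4;F/F) and 3 conditional knockout (cKO) samples (Tox4;F/F;Lck+). CD8 thymocytes, sorted as TCRβ+CD8+ cells, came from 5 control samples (Tox4;F/F) and 5 cKO samples (Tox4;F/F;Lck-cre). Mice were sex-matched littermates of C57BL/6 background, 6 to 8 weeks old. Both genotypes carry *Tox4* alleles with loxP sites around exons 4 to 6, and in cKO mice the proximal *Lck* promoter drives Cre from the DN3 stage on, so DP and CD8 cells both derive from cells in which Cre was active. The control labels name no Cre, so an effect of Cre itself cannot be told apart from loss of *Tox4*.

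Cytotoxic T cells kill by releasing granules that hold perforin, which opens the target membrane, and granzymes, proteases that enter and trigger death. The T-box factors Eomesodermin and T-bet drive these genes together with interferon-gamma. Most CD8 cells leave the thymus naive and acquire the program after antigen, but in some mutant mice and under interleukin-4, CD8 thymocytes take on a memory-like state with high Eomesodermin while still in the thymus.

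Each DP sample had 14583336 to 25981683 counted fragments and each CD8 sample 8514135 to 13530783. The libraries carry no molecular identifiers, so limits set on counts below cover counting error alone. Values per sample are given as CPM after TMM normalization over all 16 samples, and levels between genes as TPM, which also divides by exonic length. *Tox4* itself had 149, 165 and 175 CPM in the DP control samples and 128, 135 and 129 CPM in the DP cKO samples. In CD8 control samples it had 199, 191, 204, 207 and 183 CPM, and in CD8 cKO samples 173, 189, 178, 237 and 168 CPM. The log2 fold change was -0.32 in DP cells (standard error 0.11, edgeR adjusted p = 0.381) and -0.06 in CD8 cells (standard error 0.10, edgeR adjusted p = 0.979). The count covers the whole gene and is not split by exon. Exons outside the deletion may keep their fragments, so this level does not check the genotype labels. CD8 cKO replicate 4 lay above every CD8 control sample.

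The CD8 samples fell into 2 sets by replicate number, in both genotypes alike. *Cd4*, the coreceptor lost by CD8 lineage cells, was at 62.1 and 70.9 TPM in CD8 control replicates 1 and 2 and at 69.7 and 81.6 TPM in cKO replicates 1 and 2. In replicates 3 to 5 it was at 6.31, 3.64 and 10.7 TPM in control and 6.78, 5.79 and 8.33 TPM in cKO samples. *Klf2*, a factor of mature thymocytes ready to leave, was at 585, 477, 1425, 1599 and 1241 TPM in CD8 control samples and 430, 476, 1395, 1495 and 898 TPM in cKO samples. Replicates 1 and 2 thus had more *Cd4* and less *Klf2* than replicates 3 to 5, and no label names a reason. In CD8 control replicate 1, 17741 genes were detected, where the other CD8 samples had 13708 to 15054. Group means of CD8 samples below run over both sets, and fold changes of *Gzmb*, *Prf1* and *Tbx21*, which for cKO against control had opposite signs in the sets, are given within each as well. *Ifng*, which had too few fragments for the edgeR test in CD8 cells, also went opposite ways in the sets, and its values are given by set below.

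Markers of both cell types were read from the control samples. Of 10 DP markers 9 were called lower in CD8 than in DP cells and 0 higher, and of 10 CD8 single positive markers 8 were called higher and 1 lower, beside 21.1% higher and 22.9% lower of all genes tested. DP control samples had means of 1675 TPM of *Cd4* and 3607 TPM of *Rag1*, the recombinase. In CD8 control samples *Rag1* was at 43.4 and 60.1 TPM in replicates 1 and 2 and at 10.8, 5.57 and 7.36 TPM in replicates 3 to 5. CD8 control samples had 467 TPM of *Runx3*, the CD8 lineage factor, and DP control samples 26.0 TPM.

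*Nkg7*, whose product is a membrane protein of cytotoxic granules, was the most abundant of the 10 genes in CD8 cells, with a mean of 501 ± 103 TPM (SD, n = 10) and every sample above all samples of the other 9. It held place 259 among the genes of the CD8 samples, of which 11995 reached a mean of 1 TPM. *Klrd1*, which encodes the NK receptor chain CD94, followed with 95.5 ± 27.0 TPM and *Prf1*, perforin, with 60.0 ± 8.03 TPM (SD, n = 10 each), and the ranges of *Klrd1* and *Prf1* overlapped. The range of *Prf1* lay above that of *Ccl5*, a chemokine, at 25.4 ± 8.36 TPM (SD, n = 10). From *Ccl5* down, each gene overlapped the next: *Gzma* had a mean of 14.3 TPM, *Eomes* 14.0 TPM, *Gzmb* 11.3 TPM, *Tbx21* 6.20 TPM, *Ifng* 2.32 TPM and *Gzmk* 1.39 TPM. These means, and those of DP cells below, run over both genotypes. In CD8 control samples alone *Eomes* (13.7 TPM) and *Gzmb* (11.5 TPM) lay above *Gzma* (10.6 TPM), which had 18.1 TPM in CD8 cKO samples. *Gzmk* had means of 0.261 TPM in CD8 control and 2.52 TPM in CD8 cKO samples.

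In DP cells the order was another one. *Gzma* was at 84.0 ± 31.0 TPM (SD, n = 6), and its lowest sample, at 36.8 TPM, lay above the highest sample of the next gene, *Nkg7*, at 13.8 TPM. *Nkg7* had a mean of 7.88 TPM, *Prf1* 6.19 TPM, *Ccl5* 5.82 TPM and *Klrd1* 1.80 TPM, with each range overlapping the next. The other 5 genes had means under 1 TPM, down to *Eomes* at 0.141 TPM and *Gzmk* at 0.0313 TPM.

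**Figure D1:**
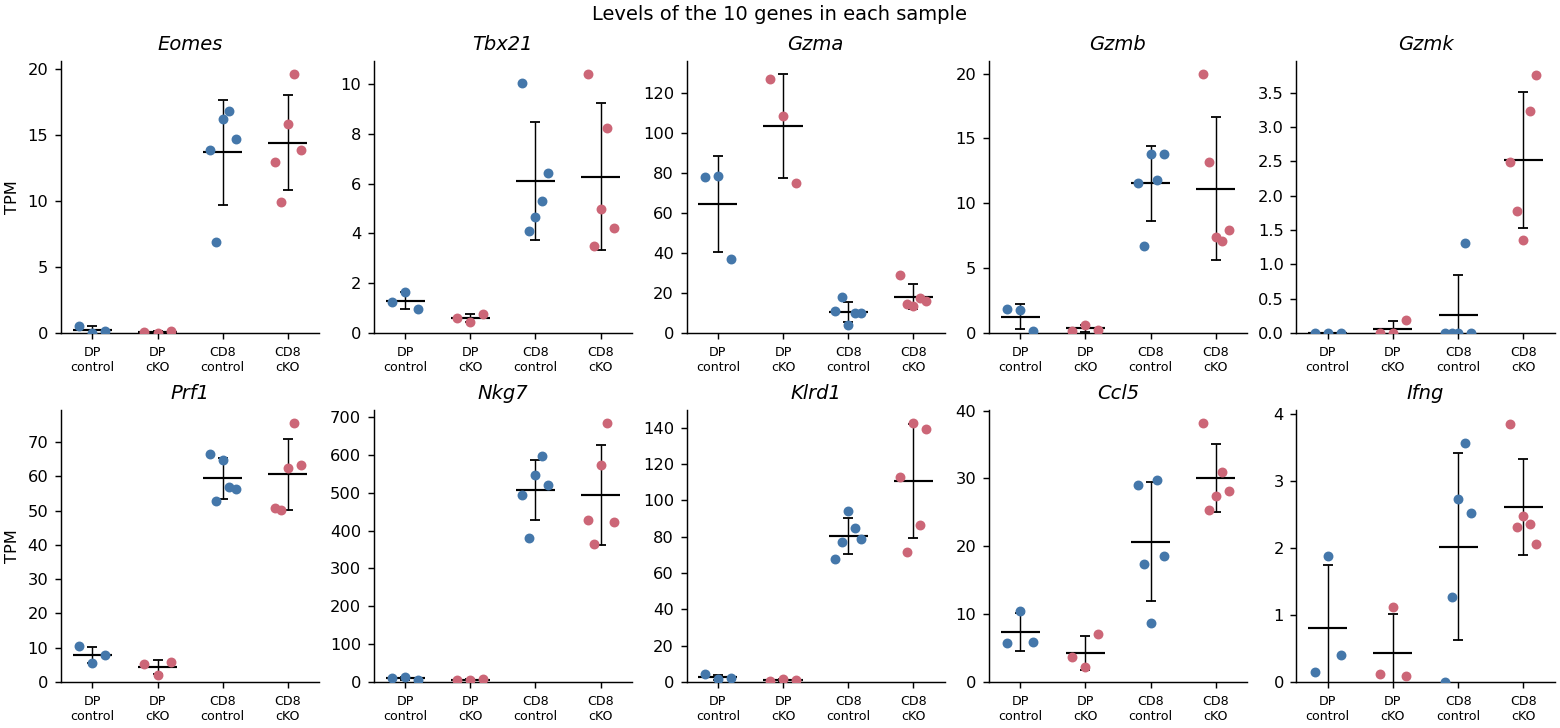
TPM of each of the 10 genes in every sample (points), with the mean and SD of each group (bars), for DP control and cKO (n = 3 each) and CD8 control and cKO (n = 5 each). *Gzma* has its highest group means in DP samples and the other 9 genes in CD8 samples, with scales that run from under 4 TPM for *Gzmk* to 684 TPM for *Nkg7*.

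RefSeq promoters (GRCm38.p6) were found for 8 of the 10 genes. Each window of 250 bases before and 50 bases after the start was searched on both strands for GGTGTGA, the core that T-box factors such as T-bet and Eomesodermin recognize, and for TGTGGTT, a RUNX motif. The 4 windows with a match are printed, and those of *Eomes*, *Tbx21*, *Prf1* and *Ifng* had none. The 250 bases before the start are given 5' to 3' on the strand of the gene, with matches in capitals.
Nkg7, chr7:43436888-43437137, plus strand: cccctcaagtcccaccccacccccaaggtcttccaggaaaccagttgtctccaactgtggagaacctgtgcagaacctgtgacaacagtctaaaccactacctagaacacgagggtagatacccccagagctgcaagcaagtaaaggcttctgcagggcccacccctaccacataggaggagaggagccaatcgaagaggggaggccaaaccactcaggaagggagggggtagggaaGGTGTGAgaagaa
Gzmk, chr13:113180966-113181215, minus strand: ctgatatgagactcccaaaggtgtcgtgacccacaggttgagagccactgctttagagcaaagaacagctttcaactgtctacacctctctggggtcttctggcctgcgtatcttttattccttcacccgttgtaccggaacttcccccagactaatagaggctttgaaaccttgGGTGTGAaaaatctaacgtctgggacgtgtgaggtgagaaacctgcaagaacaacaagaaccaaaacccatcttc
Gzma, chr13:113100982-113101231, minus strand: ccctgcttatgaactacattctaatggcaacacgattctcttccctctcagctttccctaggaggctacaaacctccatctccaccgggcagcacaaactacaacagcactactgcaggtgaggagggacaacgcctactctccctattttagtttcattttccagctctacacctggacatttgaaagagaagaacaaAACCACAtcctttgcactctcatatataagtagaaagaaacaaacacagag
Gzmb, chr14:56262335-56262584, minus strand: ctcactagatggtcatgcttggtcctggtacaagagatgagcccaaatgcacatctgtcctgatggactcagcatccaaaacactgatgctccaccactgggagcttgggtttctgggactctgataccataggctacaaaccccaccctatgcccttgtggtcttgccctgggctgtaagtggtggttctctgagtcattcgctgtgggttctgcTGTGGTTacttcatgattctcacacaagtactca
The T-box core was in the windows of *Nkg7* and *Gzmk*, 2 of the 8 genes, and in 3.98% of all 32851 promoter windows of this length. The RUNX motif was in those of *Gzma*, on the opposite strand, and *Gzmb*, 2 of the 8, and in 5.27% of all windows. The matches of the 2 motifs did not overlap. They are matches of letters, and no binding was measured in these samples.

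Control CD8 samples were compared with control DP samples to place the genes in normal development. Of the 10 genes, 7 were called higher in CD8 cells, beside 21.1% of the 12131 genes tested, and 1, *Gzma*, was called lower, beside 22.9% of the genes tested (a gene was called at a fold change of 1.5 or more and a mean of 1 TPM or more, with an adjusted p under 0.05). The median log2 fold change of the 10 genes was 2.95, and 2.47 with *Gzmk* set to the 1.59-fold value given below, against -0.03 over all genes tested. The cell types were deposited as separate tables, and cell type and batch cannot be told apart.

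The T-box genes were both higher in CD8 cells. *Eomes* had 0.626, 0 and 0.172 CPM in the DP control samples and 16.5, 7.74, 18.6, 20.4 and 17.3 CPM in the CD8 control samples. Every CD8 control sample was above every DP control sample, with a log2 fold change of 5.90 (edgeR adjusted p = 4.58e-08, standard error 0.55). With 1 sample left out it ran from 5.30 to 7.48, the highest without DP control replicate 1, which held 11 of the 14 DP fragments. *Tbx21*, which encodes T-bet, had 1.02, 1.47 and 0.860 CPM in DP and 8.25, 3.17, 3.68, 4.42 and 5.23 CPM in CD8 control samples. These groups did not overlap either, and the log2 fold change was 2.13 (standard error 0.43, edgeR adjusted p = 0.000366).

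Among the granule genes, *Nkg7* had 2.73, 3.88 and 1.78 CPM in the DP control samples and 129, 94.1, 138, 158 and 135 CPM in the CD8 control samples, a 46.4-fold rise (log2 fold change 5.53, edgeR adjusted p = 5.03e-11, standard error 0.31). *Prf1* had 6.83, 4.03 and 5.56 CPM in DP and 43.9, 32.8, 41.0, 38.1 and 36.9 CPM in CD8 control samples, a 7.04-fold rise (edgeR adjusted p = 5.74e-08). *Gzmb*, the granzyme that activates caspases, had 0.911, 0.943 and 0.0573 CPM in DP and 5.61, 3.08, 6.43, 5.84 and 6.65 CPM in CD8 control samples, an 8.50-fold rise (edgeR adjusted p = 0.00011). For all 3 genes the CD8 control samples lay above the DP control samples.

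*Gzma*, which encodes a tryptase of the granule, went the other way. It had 22.1, 24.0 and 11.3 CPM in the DP control samples and 3.08, 4.85, 1.12, 2.82 and 2.77 CPM in the CD8 control samples. Every DP control sample was above every CD8 control sample, with a log2 fold change of -2.70 for CD8 against DP (standard error 0.33, edgeR adjusted p = 1.23e-06). *Gzmk*, another tryptase gene, lies 70648 bases from *Gzma* on chromosome 13, on the same strand (*Gzma* at 113093824 to 113100981 and *Gzmk* at 113171630 to 113180965, mm10). It had 0 fragments in all 3 DP control samples and 5 fragments in all in the CD8 control samples, and was not called (edgeR adjusted p = 0.104). Set against 3 fragments over the DP group, the 5 fragments were 1.59-fold more, a value that leaves out their own counting error. All 5 fragments were in replicate 4, and without it both groups were at 0 and no ratio can be given.

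The receptor gene *Klrd1* had 1.196, 0.419 and 0.573 CPM in the DP control samples and 18.8, 20.3, 25.2, 24.0 and 21.8 CPM in the CD8 control samples, with no overlap and a log2 fold change of 4.91 (edgeR adjusted p = 5.79e-10, standard error 0.33). *Ccl5* had 0.968, 1.94 and 1.09 CPM in DP and 4.95, 2.80, 1.43, 5.18 and 3.14 CPM in CD8 control samples. CD8 control replicate 3 lay within the DP range, and *Ccl5* was called with a log2 fold change of 1.38 (edgeR adjusted p = 0.0103, standard error 0.43). *Ifng*, interferon-gamma, had 1, 15 and 3 fragments in the DP and 0, 5, 10, 15 and 13 fragments in the CD8 control samples and was not called (edgeR adjusted p = 0.237). Without DP control replicate 2, the sample with 15 fragments, its adjusted p was 0.0494 and its log2 fold change 2.68.

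The question for cKO mice was whether loss of *Tox4* raised or lowered this program in CD8 cells. None of the 10 genes was called, beside 0.098% of the 11227 genes tested (11 genes, and 31 with the replicate number as a block). Of the 10, 8 had enough fragments for edgeR's filter and *Gzmk* and *Ifng* did not. An unadjusted p under 0.05 was reached by 2 of the 8, *Gzma* and *Klrd1*, and by 629 of all genes tested, and DESeq2 called 0 of the 10. The median log2 fold change of the 8 was 0.04, against -0.01 over all genes tested. Without CD8 control replicate 1, 15 genes and 0 of the 10 were called. None of the 8 genes tested had control and cKO groups that did not overlap, beside 1.51% of the genes tested.

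The transcription factors, perforin and *Nkg7* had close means in both genotypes. *Eomes* had 15.3, 11.4, 17.9, 24.0 and 14.6 CPM in the CD8 cKO samples, with a log2 fold change against control of 0.04 (edgeR adjusted p = 0.998, standard error 0.24). *Prf1* had 33.2, 31.9, 39.2, 51.1 and 36.9 CPM in the cKO samples, with a log2 fold change of -0.0025 (edgeR adjusted p = 0.999, standard error 0.14). *Nkg7* had 110, 91.3, 142, 183 and 97.5 CPM in the cKO samples, with a log2 fold change of -0.06 (edgeR adjusted p = 0.992, standard error 0.18). For these 3 genes cKO replicate 4 was the highest of all 10 CD8 samples, and *Tbx21*, at a log2 fold change of 0.03 (standard error 0.35), was highest in replicate 1 of both genotypes. The standard errors are the precision with which 5 against 5 samples show such differences, and a p over the threshold does not show that the levels were equal.

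*Gzma* had 8.12, 3.89, 3.65, 5.06 and 3.99 CPM in the CD8 cKO samples, against 3.08, 4.85, 1.12, 2.82 and 2.77 CPM in control samples. It was higher in cKO in 4 of 5 same-numbered pairs, control replicate 2 overlapped the cKO samples, and the log2 fold change of 0.76 did not pass the threshold (standard error 0.34, edgeR adjusted p = 0.877). *Klrd1* had 31.1, 19.2, 37.7, 24.7 and 34.2 CPM in the cKO samples, against 18.8 to 25.2 CPM in control samples. It was higher in cKO in 4 of 5 pairs, with a log2 fold change of 0.41 that did not pass (standard error 0.17, edgeR adjusted p = 0.781). *Ccl5* had 6.46, 4.15, 4.44, 5.41 and 4.23 CPM in the cKO samples and was higher in cKO in 5 of 5 pairs, with a log2 fold change of 0.50 (edgeR adjusted p = 0.979, standard error 0.31). Without control replicate 1 the log2 fold changes of *Gzma*, *Klrd1* and *Ccl5* were 0.78, 0.37 and 0.66, and none passed.

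*Gzmb* values went opposite ways in the sets of CD8 samples, which were split after seeing the data. The share of all genes with groups apart inside a set was not counted. It had 9.60 and 6.14 CPM in cKO replicates 1 and 2, above the 5.61 and 3.08 CPM of the control replicates of these numbers. In replicates 3 to 5 it had 3.42, 3.53 and 3.41 CPM in cKO and 6.43, 5.84 and 6.65 CPM in control samples, so there all cKO samples were below all control samples. The log2 fold change was 0.86 in replicates 1 and 2 alone (edgeR adjusted p = 0.984), -0.86 in replicates 3 to 5 alone (edgeR adjusted p = 0.257) and -0.06 over all (edgeR adjusted p = 0.998). Within the same sets *Gzma* had log2 fold changes of 0.59 and 0.90 and *Klrd1* of 0.36 and 0.45, none past the threshold. *Prf1* had log2 fold changes of -0.24 in replicates 1 and 2 and 0.14 in replicates 3 to 5, and *Tbx21* of -0.018 and 0.056, none past the threshold either.

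*Gzmk* had 0, 0, 0, 5 and 0 fragments in the CD8 control samples and 10, 7, 4, 10 and 10 fragments in the CD8 cKO samples. Control replicate 4 was thus the only control sample with a fragment, and on the CPM scale its 0.471 lay just above the 0.456 of cKO replicate 3. The 4 samples at 0 allow up to 3 fragments each, which is 0.222 to 0.318 CPM of their totals. *Gzmk* was higher in cKO in 5 of 5 same-numbered pairs, with 5 fragments in control and 41 in cKO samples in sum and means of 0.0941 and 0.857 CPM. An exact permutation test, 2-sided and with no adjustment over genes, gave p = 0.0159 with samples exchanged freely. Within pairs, which the replicate numbers were taken to form, the exact p was 0.0625, the smallest that 5 pairs allow, so the difference did not pass there. With the filter left out, its edgeR adjusted p was 0.622 and that of DESeq2 was 0.319. *Ifng* had 17, 10, 8, 8 and 6 fragments in the cKO samples, within the range of the control samples apart from the first (exact permutation test, 2-sided, p = 0.492). Like those of *Gzmb*, its values went opposite ways in the sets, which was not tested for *Ifng*. In replicates 1 and 2 the cKO samples (1.48 and 0.865 CPM) lay above the control samples (0 and 0.466 CPM). In replicates 3 to 5 the cKO samples (0.911, 0.940 and 0.705 CPM) lay below the control samples (1.02, 1.41 and 0.972 CPM). There *Ifng* had 8, 8 and 6 fragments in cKO and 10, 15 and 13 in control samples. With so few fragments, and sets split after seeing the data, no difference between the sets is read from it.

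**Figure D2:**
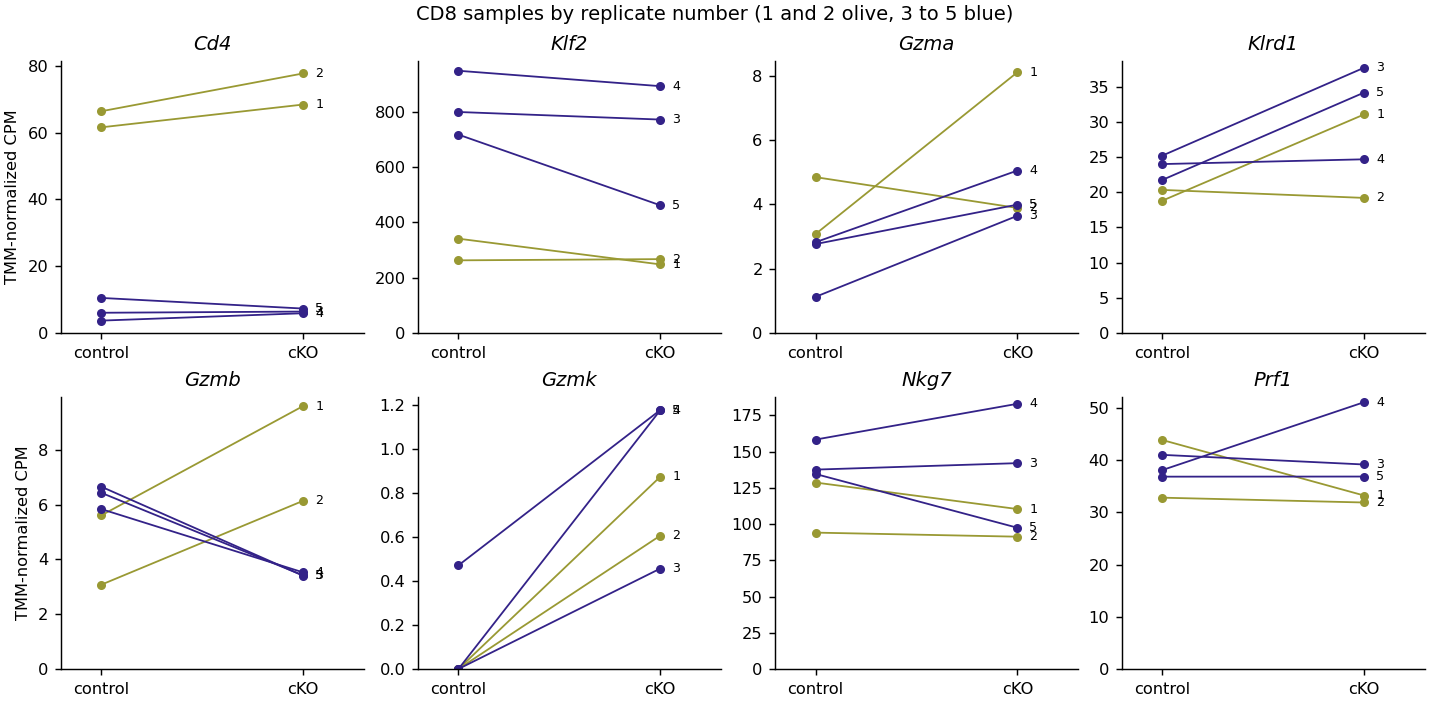
TMM-normalized CPM of *Cd4*, *Klf2* and 6 of the 10 genes in CD8 samples, with a line from the control to the cKO sample of each replicate number. *Cd4* and *Klf2* split replicates 1 and 2 from 3 to 5, *Gzmb* goes up in the first set and down in the second, and *Gzmk* goes from 0 in 4 control samples to between 0.456 and 1.18 CPM in cKO samples.

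Marker lists of other cells that carry these genes were read beside these values. Of 6 gamma-delta T cell markers all 6 had fragments in CD8 samples, with *Sox13* the most abundant (mean 6.18 TPM), and 1 of the 4 tested was called, beside 0.098% of all genes tested: *Cd163l1*, a scavenger receptor of gamma-delta T cells, with a log2 fold change of 1.81 (edgeR adjusted p = 0.00984, standard error 0.26). Their summed level was 15.7, 12.9, 13.7, 9.01 and 11.8 TPM in control and 36.4, 20.9, 20.2, 18.1 and 27.8 TPM in cKO samples, without overlap. Most of this difference lay in *Cd163l1* (means of 2.28 TPM in control and 8.23 TPM in cKO samples) and *Sox13* (3.57 and 8.80 TPM). *Blk* had 1.44 and 2.31 TPM, *Maf* 4.31 and 4.68 TPM, *Il23r* 0.738 and 0.398 TPM and *Il17a* 0.264 and 0.235 TPM. All 4 tested markers had positive log2 fold changes (median 0.98), and *Il23r* and *Il17a* were not tested. The sort took TCRβ+ cells, which gamma-delta T cells are not, and the part of such cells in the values of *Gzma*, *Klrd1* and *Gzmk* was not tested. Of 6 NK cell markers 5 had fragments, *Fcer1g* was the most abundant (mean 13.1 TPM), *Klra8* was at 0 in every sample, and *Ncr1*, which defines NK cells, was at 0 to 0.579 TPM. The NK sum was 39.9, 19.8, 17.6, 16.0 and 17.6 TPM in control and 55.0, 19.7, 16.7, 17.7 and 21.6 TPM in cKO samples. cKO replicate 1, with the highest NK sum, also had the highest *Gzma*, *Gzmb*, *Ccl5*, *Tbx21* and *Ifng* of all CD8 samples. The other members did not follow. Its *Prf1* (33.2 CPM) and *Nkg7* (110 CPM) lay below all control samples but replicate 2. Its *Klrd1* (31.1 CPM), *Eomes* (15.3 CPM) and *Gzmk* (0.873 CPM) lay within the range of the other cKO samples. *Fcer1g* alone gave 33.4 TPM of its NK sum. Control replicate 1, with the next highest NK sum, had the highest *Tbx21* (8.25 CPM) and *Prf1* (43.9 CPM) of the control samples. It had their second highest *Ccl5* (4.95 CPM) and *Gzma* (3.08 CPM, below every cKO sample). Its *Gzmb*, at 5.61 CPM, lay within the range of the other control samples. Its *Klrd1* (18.8 CPM) was the lowest of the control samples, and *Ifng* had 0 fragments in it. In such bulk samples, a change in the number of cells of a type and a change in RNA per cell cannot be told apart.

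In DP cells the same comparison called none of the 10 genes, beside 0.145% of the 11748 genes tested (17 genes, against 160 by DESeq2 and 0 to 8 with 1 sample left out). Only 5 of the 10 had enough fragments for the filter: *Tbx21*, *Gzma*, *Prf1*, *Nkg7* and *Ccl5*. An unadjusted p under 0.05 was reached by 2 of the 5, *Gzma* and *Tbx21*, and by 1079 of all genes tested, and DESeq2 called 0 of the 6 genes to which it gave an adjusted p. The log2 fold change was positive for *Gzma* and negative for the other 4, with a median of -0.75 against -0.0011 over all genes tested. Groups that did not overlap on CPM were seen for 2 of the 5, beside 14.6% of the genes tested.

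*Gzma* had 37.2, 32.4 and 24.7 CPM in the DP cKO samples, against 22.1, 24.0 and 11.3 CPM in control samples. The lowest cKO sample lay just above the highest control sample, while on TPM these samples overlapped (75.2 against 78.6 TPM). The log2 fold change of 0.71 did not pass the threshold (standard error 0.28, edgeR adjusted p = 0.457). *Tbx21* had 0.501, 0.391 and 0.734 CPM in the cKO samples, all below the 0.860 CPM of the lowest control sample, with a log2 fold change of -1.01 that did not pass (standard error 0.44, edgeR adjusted p = 0.526).

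*Nkg7* had 1.27, 1.43 and 2.09 CPM in the DP cKO samples, against 2.73, 3.88 and 1.78 CPM in control samples, and cKO replicate 3 overlapped the control range (log2 fold change -0.80, edgeR adjusted p = 0.591, standard error 0.38). *Prf1* had 3.64, 1.43 and 4.56 CPM in the cKO samples, also with overlap (log2 fold change -0.75, edgeR adjusted p = 0.624, standard error 0.39). *Ccl5* had 0.637, 0.391 and 1.39 CPM (log2 fold change -0.69, edgeR adjusted p = 0.766, standard error 0.52). With 1 sample left out, *Ccl5* ran from -1.33, without cKO replicate 3, to -0.31, without control replicate 2. The 5 genes under the filter had few fragments in all: 14 in control and 6 in cKO samples for *Eomes*, 35 and 10 for *Gzmb*, 39 and 20 for *Klrd1*, 19 and 9 for *Ifng* and 0 and 2 for *Gzmk*. Their exact permutation p-values were 0.5, 0.4, 0.2, 0.5 and 1 in this order, where 3 against 3 samples allow no p under 0.1.

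Markers of other cells were read beside the DP values as well. Of 10 macrophage and dendritic cell markers all 10 had fragments in DP samples, with *Cd74* the most abundant (mean 74.4 TPM). Of the 10, 9 had negative log2 fold changes (median -1.17, 0 called). An unadjusted p under 0.05 was reached by 7 of them, *Cd68* included, beside 1079 of all 11748 genes tested. *Cd68* went the other way, with means of 18.7 TPM in control and 28.0 TPM in cKO samples. Their summed level was 166, 350 and 152 TPM in control and 96.9, 108 and 135 TPM in cKO samples. Control replicate 2, with the highest sum, also had the highest *Nkg7*, *Tbx21*, *Ccl5*, *Gzmb* and *Ifng* of the DP samples, but the lowest *Prf1*, *Klrd1* and *Eomes* of the control samples. Of 15 naive and egress genes 14 were tested and 13 had negative log2 fold changes (median -0.31, 0 called, 8 at an unadjusted p under 0.05). Among them was *Ccr7*, a receptor for leaving the cortex, with 48.6, 29.5 and 24.5 TPM in control and 17.1, 16.6 and 13.6 TPM in cKO samples. The sum of the naive and egress genes was 10101, 10237 and 10581 TPM in control and 9240, 9463 and 9850 TPM in cKO samples. Most of it, 67.1%, was *Tcf7*, which had means of 6722 TPM in DP and 4011 TPM in CD8 control samples, so the sum is no measure of mature cells. Of 10 CD8 single positive markers all 10 had fragments and 9 had negative log2 fold changes (median -0.36, 0 called, 5 at an unadjusted p under 0.05). Their sum was 7867, 6783 and 6973 TPM in control and 6595, 5882 and 6134 TPM in cKO samples, without overlap. The most abundant was *Cd8b1*, which DP cells carry as well, so this sum is no measure of mature cells either. Without *Cd8a*, *Cd8b1* and *Cd3e*, the sum of the other 7 was 357, 310 and 283 TPM in control samples. It was 281, 291 and 257 TPM in cKO samples, with overlap. Of 6 B cell markers all 6 had fragments, led by *Cd79b*, and the 4 tested had negative log2 fold changes (median -1.08, 0 called, 2 at an unadjusted p under 0.05). Their sums were 54.9, 61.9 and 42.1 TPM in control and 40.2, 44.9 and 43.4 TPM in cKO samples. Of 6 NK cell markers 2 were tested, 1 with a positive and 1 with a negative log2 fold change (median -0.012, 0 called). The NK sums overlapped, with 17.1, 21.9 and 11.6 TPM in control and 11.2, 15.0 and 14.8 TPM in cKO samples. The DP cells were sorted, and the part of other cells in the values of *Nkg7*, *Prf1*, *Ccl5* and *Tbx21* was not tested.

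**Figure D3:**
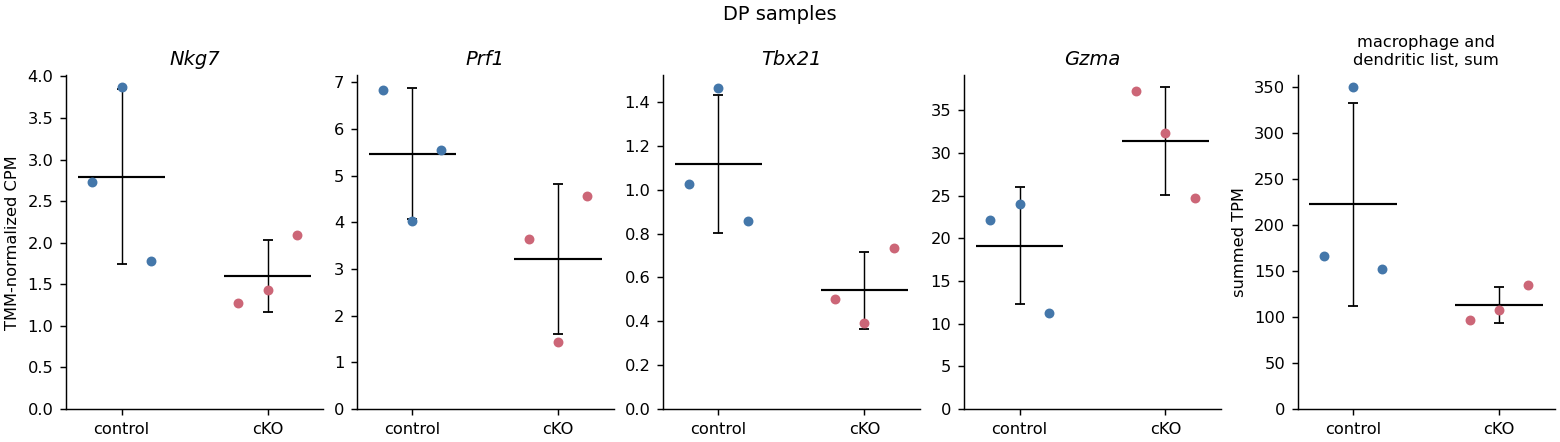
TMM-normalized CPM of *Nkg7*, *Prf1*, *Tbx21* and *Gzma*, and summed TPM of 10 macrophage and dendritic cell markers, in DP control and cKO samples (points, n = 3 each), with means and SD (bars). *Gzma* is the 1 gene of these with the higher mean in cKO samples, and control replicate 2 has the highest marker sum, 350 TPM.

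The difference between the cKO effects in CD8 and DP cells was tested as an interaction over 12131 genes. None of the 10 genes passed, beside 0.107% of the genes tested (13 genes). *Gzmk* had 0 fragments in the DP control samples, so its DP fold change has no upper bound and its difference no sign. The other 9 had a higher log2 fold change in CD8 than in DP cells, with a median difference of 1.17 against -0.01 over all genes tested. Among these 9, *Eomes*, *Gzmb*, *Klrd1* and *Ifng* were under the filter in DP cells alone and entered this fit through the CD8 samples. Their DP side rests on 14 and 6, 35 and 10, 39 and 20, and 19 and 9 fragments in control and cKO samples. The count and the median include them and are no support for a common difference. Markers of other cells also had positive differences, with 0 called. These were 9 of 10 macrophage and dendritic cell markers (median 1.74), 6 of 6 B cell markers (0.97) and 3 of 4 NK cell markers (1.34). Epithelial and stromal markers were positive in 1 of 2 (0.08). Positive differences were not particular to lists of other cells. They were seen for 13 of 15 naive and egress genes (0.47) and 7 of 10 CD8 single positive markers (0.42). The same held for 19 of 20 memory-like surface receptors (0.96, 1 called). Of 10 DP markers 6 were positive and 4 negative (0.15). The part of other cells in the differences of the 9 genes was not tested. With 1 sample left out, the sign turned for 3 of the 9 genes: *Eomes* (-0.13 to 2.14), *Ifng* (-0.10 to 3.12) and *Gzma* (-0.22 to 0.31, and -0.017 with the replicate block). An unadjusted p under 0.05 was reached by 2 of the 10, *Klrd1* and *Gzmb*, both under the filter in DP cells alone, and by 639 of all genes tested. DESeq2 called 0 of the 9 other than *Gzmk*, which got no adjusted p. *Klrd1* had a difference of 1.58 (edgeR adjusted p = 0.675, standard error 0.52) and *Gzma* of 0.04 (standard error 0.45, edgeR adjusted p = 0.996). *Gzma* thus had fold changes of like size in both cell types, 0.76 and 0.71 on the log2 scale, neither of them past the threshold.

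**Figure D4:**
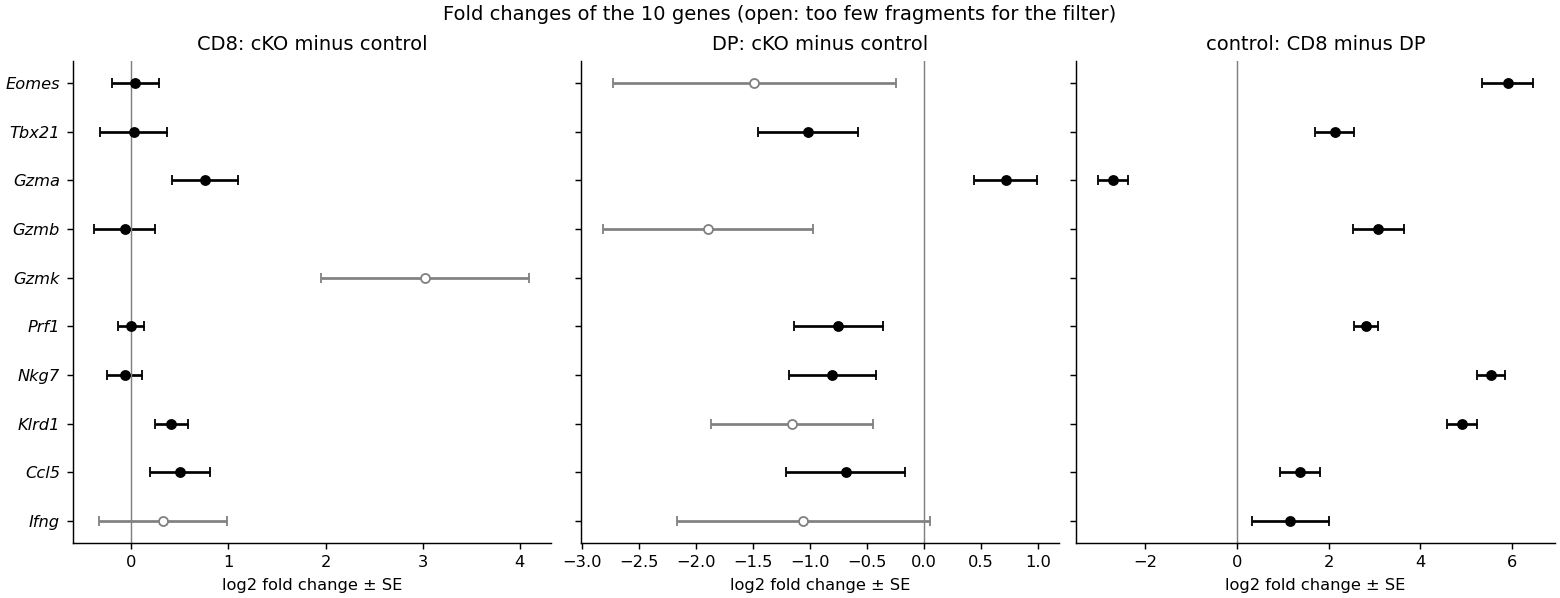
Log2 fold changes with standard errors of the 10 genes for cKO against control in CD8 and DP cells and for control CD8 against control DP. Filled points come from the tested fit and open points from a fit without the filter; *Gzmk* is left out where its control samples had 0 fragments. In the last comparison *Gzma* is at -2.70 and the other genes are above 0.

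The wider program was read from lists of related genes. Of 19 other granzyme and granule genes, 13 were tested in each comparison, 5 were called higher and 1 lower in control CD8 than in control DP cells (beside 21.1% and 22.9% of all genes tested), and 0 were called for cKO against control in either cell type. *Ctsw*, a cathepsin of cytotoxic cells, was the most abundant of them in CD8 cells, with means of 544 TPM in control and 503 TPM in cKO samples against 30.2 TPM in DP control samples. *Srgn*, the proteoglycan that packs the granule, was at 286 TPM in CD8 control samples. *Fasl*, the death ligand, was the 1 called lower: it had 162, 405 and 104 TPM in the DP control samples and 2.19 to 11.7 TPM in the CD8 control samples (log2 fold change -5.69, standard error 0.65). *Gzmd*, *Gzme*, *Gzmg* and *Gzmn*, granzymes of activated and decidual lymphocytes, were at 0 fragments in every sample.

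Of 22 memory-like surface receptors, 20 were tested between the control cell types, and 16 were called higher and 3 lower in CD8 cells, beside 21.1% and 22.9% of all genes tested. *Il2rb*, the receptor chain for interleukin-2 and interleukin-15, was the most abundant in CD8 cells (514 TPM in control and 557 TPM in cKO samples), and *Cd44*, a marker of memory cells, was at 30.0 and 33.1 TPM. For cKO against control, 0 of 17 were called in CD8 cells (median log2 fold change 0.13) and 0 of 15 in DP cells (median -0.84). The interaction called 1 of 20, beside 0.107% of all genes tested: *Cd226*, an activating receptor, with a difference of 1.09 (edgeR adjusted p = 0.0499, standard error 0.21). The call was kept by DESeq2 (adjusted p = 0.000769), without the filter (edgeR adjusted p = 0.0258) and with the replicate block (edgeR adjusted p = 0.018). It was lost in 14 of the 16 fits with 1 sample left out, with differences of 0.98 to 1.22, and with RLE normalization (edgeR adjusted p = 0.0509), upper-quartile normalization (edgeR adjusted p = 0.0646) or CD8 replicates 3 to 5 alone (edgeR adjusted p = 0.069). *Cd226* had 18.8, 15.1 and 12.7 TPM in DP control and 7.82, 9.89 and 6.72 TPM in DP cKO samples, and means of 162 TPM in CD8 control and 190 TPM in CD8 cKO samples.

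Of 16 effector transcription factors, all tested between the control cell types, 9 were called higher and 0 lower in CD8 cells, beside 21.1% and 22.9% of all genes tested. *Runx3* led them in level, and *Tox*, a relative of *Tox4*, was at 649 and 593 TPM in CD8 control replicates 1 and 2 and at 323, 286 and 344 TPM in replicates 3 to 5. For cKO against control 0 of 15 were called in CD8 and 0 of 14 in DP cells, with medians of -0.00096 and -0.31. Of 10 effector cytokines and chemokines, 6 were tested between the control cell types and 4 were called higher in CD8 cells (beside 21.1% of all genes tested), among them *Ltb*, a lymphotoxin (454 TPM in CD8 control samples), and *Xcl1*, a chemokine for dendritic cells, at 38.8 TPM in CD8 control and 51.9 TPM in CD8 cKO samples. For cKO against control 0 of 6 were called in CD8 and 0 of 5 in DP cells.

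The genes that hold back or induce the memory-like state were read as well. Of 13 such genes, 0 of 12 tested were called for cKO against control in CD8 cells (median log2 fold change -0.09) and 0 of 11 in DP cells (median -0.12). *Il4*, the cytokine known to induce the state, was at 0 in all DP samples and in all CD8 cKO samples, and in CD8 control samples 3 fragments were seen, all in replicate 1. *Id3* was at 164 TPM in CD8 control and 150 TPM in CD8 cKO samples, and *Zbtb16*, the factor PLZF of innate-like T cells, at 1.78 and 1.24 TPM. In CD8 cells 0 of 15 naive and egress genes were called (median log2 fold change -0.0043).

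The genes most like each of the 10 over the CD8 samples were sought among 11994 others by Pearson's r of log2(CPM + 1) over the 10 samples, as a description. For *Klrd1* the first was *Tnfsf8*, the ligand of CD30 (r = 0.95, and 0.99 in the 6 samples of replicates 3 to 5), and for *Ccl5* the third was the chemokine receptor *Cxcr3* (r = 0.87, and 0.88). For *Nkg7* the first 3 were *Acp5*, *Cox7a2l* and *Ctss*, each with r = 0.94, and 0.98, 0.93 and 0.90 in replicates 3 to 5. For *Prf1* the first was *B4galnt1* (r = 0.96, and 0.98), for *Eomes* *Zfp213* (r = 0.94, and 0.81), for *Gzmb* *Chchd1* (r = 0.93, and 0.98) and for *Gzma* *Gm13031* (r = 0.91, and 0.84). None of the 10 was among the first 3 of another. Samples share library and set, and leaving out CD8 control replicate 1 gave r of 0.96 for *Klrd1* with *Tnfsf8* and 0.97 for *Gzmb* with *Chchd1*.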

How the data were processed

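RNA-seq was done on 16 thymocyte samples in 4 groups, assigned from the labels. The authors filtered reads with fastp (0.13.1), aligned them with HISAT2 (2.1.0), counted fragments per gene with featureCounts (1.6.1) and deposited raw counts; the DP table also gives the exonic length of each gene under mm10, another deposited value, used here for TPM in all samples. The CD8 columns named Ctrl were taken as the control samples of the same number. Members and gene lists were chosen with earlier results of these data known.

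Whole tables were tested with edgeR 4.0.16 in R 4.3.3 after TMM and filterByExpr, using quasi-likelihood F tests, with Benjamini-Hochberg adjustment over all genes tested, each cell type by itself and all 4 groups for the interaction and the cell types. Genes under the filter got exact permutation tests (scipy 1.17.1), whose smallest p is 0.1 for 3 against 3 and 0.0079 for 5 against 5. Same-numbered CD8 samples deviated together (r = 0.389, 0.347, 0.357, 0.350 and 0.100, against a mean of -0.0803 for other numbers), so the numbers were taken to pair them, from the data and not from a stated litter; only 2 of the 5 were closest to their own number. Named genes were the 10 genes, *Tox4*, called genes of each list (at most 5 per direction), its most abundant genes, and the 3 genes most like each member by r. *Batf*, *Blk*, *Cd44*, *Il4*, *Il17a*, *Il23r*, *Ncr1* and the genes named as being at 0 lay outside this rule and were chosen after their values were seen. Alternatives were RLE, upper-quartile, DESeq2 (1.42.0), no filter, the replicate block, all groups in one fit, other call rules, RPKM, control samples alone and each sample left out; CD8 replicates 3 to 5 or 1 and 2 alone and the exact test within pairs were added after seeing the data. The tests were tried on simulated counts. Figures used matplotlib (3.10.9).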

Additional observations from a re-analysis of the deposited data

Results flagged for a closer look

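*Gzmk* in CD8 control replicate 4 had 5 fragments (0.471 CPM) where the other 4 control samples had 0. The gap thus filled the range of the group (ratio 1, against a limit of 0.71 for 5 samples, in 20 groups looked at), but with 4 samples at 0 any fragment gives this ratio, so the limit says nothing of how far the sample lies.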

How the results depend on the processing

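For cKO against control in CD8 cells, 120 of 144 fold changes over 18 settings kept their sign and call and 24 turned in sign, none of them called. The number of genes called, 11, was 46 by DESeq2, 31 with the replicate block, 5 in replicates 3 to 5 alone, 3 in replicates 1 and 2 alone and 4 to 20 with 1 sample left out; 0 of the 10 genes were called in each. *Prf1* was at 0.0021 without the filter and 0.14 in replicates 3 to 5 alone, *Tbx21* at -0.025 with the block and -0.018 in replicates 1 and 2 alone, and *Gzmb* at 0.86 in replicates 1 and 2 alone. With the block, the exact p of *Gzmk* went from 0.0159 to 0.0625 and that of *Ifng* from 0.492 to 0.75, a test added after seeing the data, and the block changed no other call of the 10 genes. With 1 sample left out, the log2 fold changes ran from -0.13 to 0.15 for *Eomes*, -0.25 to 0.28 for *Tbx21*, -0.40 to 0.058 for *Gzmb*, -0.13 to 0.058 for *Prf1*, -0.24 to 0.030 for *Nkg7*, 0.50 to 1.02 for *Gzma*, 0.31 to 0.54 for *Klrd1* and 0.31 to 0.69 for *Ccl5*.

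In DP cells 59 of 60 fold changes over 12 settings kept their sign and call. The number of genes called, 17, was 160 by DESeq2, 74 without the filter, 42 with all 4 groups in one fit, 131 with the replicate block and 0 to 8 with 1 sample left out. With 1 sample left out, the log2 fold changes ran from 0.44 to 0.92 for *Gzma*, -1.29 to -0.76 for *Tbx21*, -1.07 to -0.43 for *Prf1*, -1.05 to -0.49 for *Nkg7* and -1.33 to -0.31 for *Ccl5*. With the block 1 of the 10 genes was called, *Gzma* (log2 fold change 0.76, edgeR adjusted p = 0.0451). The DP numbers were not taken to pair samples, since their correlations were 0.708, 0.080 and 0.350 and not all over 0.1.

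For the difference between cell types 208 of 216 values over 22 settings were counted as keeping their sign and call. These include values of *Gzmk*, whose difference has no sign, since it had 0 fragments in the DP control samples. The number of genes called, 13, was 3 with upper-quartile normalization, 36 by DESeq2, 33 with the block within cell types, 5 with CD8 replicates 3 to 5 alone, 0 to 11 with 1 sample left out and 639 at an unadjusted p under 0.05, where 2 of the 10 genes passed. *Gzma* was at -0.017 with the block and -0.22 to 0.31 with 1 sample left out, *Eomes* at -0.13 to 2.14 and *Ifng* at -0.10 to 3.12.

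For control CD8 against control DP 205 of 206 values over 21 settings were counted as keeping their sign and call. These include values of *Gzmk*, which was at 0 without CD8 control replicate 4 and had no sign there. Of the 10 genes, 8 or 9 were called with 1 sample left out (*Ifng* without DP control replicate 2: 2.68, edgeR adjusted p = 0.0494). With 1 sample left out 5017 to 5384 genes were called. A block within cell type cannot enter this contrast. The order of levels in CD8 cells had 7 of 10 genes in the same place in control samples alone and 10 by RPKM. The cause of these differences was not tested.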

Other observations

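*Fasl* varied widely among DP samples. It had 162, 405 and 104 TPM in control and 58.2, 281 and 27.7 TPM in cKO samples, so replicate 2 was the highest in both genotypes (log2 fold change -0.87, edgeR adjusted p = 0.813, standard error 0.77).

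*Batf*, a factor of activated T cells, had means of 44.0 TPM in CD8 control and 24.7 TPM in CD8 cKO samples and 19.3 TPM in DP control and 9.64 TPM in DP cKO samples. Neither difference was called, with log2 fold changes of -0.86 and -0.96. *Foxp3*, the factor of regulatory T cells, had 16.2, 9.23, 7.90, 6.01 and 10.6 TPM in CD8 control and 6.85, 3.71, 3.33, 2.36 and 6.76 TPM in CD8 cKO samples (log2 fold change -1.16, not called).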
